A study of Mus musculus with 16 samples.

Results

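The 10 genes described here are Hmox1, Gclc, Gclm, Slc7a11, Gsr, Txnrd1, Srxn1, Prdx1, Nqo1 and Osgin1, which are widely used as readouts of the transcription factor Nrf2. They were taken by symbol from a list of oxidative stress genes, a choice made with earlier results of these data known, and all 10 of the 10 were found among the 23356 genes of each table. RNA was measured by sequencing in NIH3T3 cells, an immortalized mouse embryonic fibroblast line, that stably expressed DD-sfGFP, a destabilizing domain fused to superfolder GFP. All 16 libraries, controls included, came from cells with this fusion protein. The study sorted such cells by fluorescence for a high level of it. Whether all 16 libraries came from 1 sorted population was not tested. The 4 groups held 4 libraries each: control (no stress, 0 min) and bortezomib for 45, 135 or 405 min. Bortezomib is a reversible inhibitor of the chymotrypsin-like activity of the proteasome. The labels gave no dose and no vehicle control at the later times, so the time spent in the experiment and the exposure to the drug cannot be told apart. The labels do not say whether the 4 replicates were separate cultures, and the p-values below measure only the spread between these libraries.

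Nrf2, the product of Nfe2l2, is a basic leucine zipper factor that is made all the time and destroyed all the time. Keap1 holds it on a ubiquitin ligase built on Cul3, and the proteasome degrades it. When electrophiles modify Keap1, or when degradation is blocked, Nrf2 accumulates, enters the nucleus, pairs with a small Maf protein and binds antioxidant response elements, which Bach1 can occupy as a repressor. Its targets make glutathione, reduce thioredoxin, break down heme and detoxify quinones. Several of them have other regulators too, among them Atf4 for Slc7a11 and Hsf1 for Hmox1.

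The sequences that bear on these roles are the promoter windows, which in RefSeq (GRCm38.p6) run from 250 bases before to 50 bases after each start site. Windows were found for 7 of the 10 genes. Each was searched on either strand for the antioxidant response element core, TGACNNNGC. It was found in a window of 4 of the 7 genes, against 14.0% of all 27025 genes with a window. Of the wider lists named below, 4 of 8 regulators, 6 of 23 other Nrf2 targets and 1 of 16 other antioxidant enzymes with a window had it. Each of the 4 matches in the 7 genes is given with 10 bases on either side and the core in capitals. In all of them the core lies on the opposite strand, so that it reads from the right.
Gclm, chr3:122245413-122245441, + strand: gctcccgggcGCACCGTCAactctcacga
Txnrd1, chr10:82859104-82859132, + strand: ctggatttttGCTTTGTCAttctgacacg
Srxn1, chr2:152105542-152105570, + strand: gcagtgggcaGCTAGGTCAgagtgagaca
Prdx1, chr4:116685456-116685484, + strand: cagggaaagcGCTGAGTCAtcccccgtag

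Counted from the start site, the matches begin at base -134 in Gclm, -133 in Prdx1 and -92 in Txnrd1, and 28 bases past it in Srxn1. The Txnrd1 match is in 1 of its 3 windows. The Nqo1, Osgin1 and Slc7a11 windows held no match, which says only that these letters are not in that stretch. The Slc7a11 window did hold the core of an amino acid response element, TGATGCAA, the kind of site that Atf4 binds with a partner. It occurred there 2 times, once on each strand, at bases -66 and -47. Of all 27025 genes, 1.03% had this core in a window and 2 genes had it 2 times. The 250 bases before the Slc7a11 start, with the cores in capitals, are shown because edgeR called Slc7a11 between 45 and 405 min in the libraries with a high share of ribosomal protein transcripts.
Slc7a11, chr3:50443614-50443863, - strand: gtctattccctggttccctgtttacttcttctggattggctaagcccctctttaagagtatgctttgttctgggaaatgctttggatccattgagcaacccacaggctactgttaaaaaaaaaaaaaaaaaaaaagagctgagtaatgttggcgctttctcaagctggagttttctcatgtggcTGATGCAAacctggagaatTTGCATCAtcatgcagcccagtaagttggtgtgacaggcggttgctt

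The libraries were of very unequal depth and fell into 2 kinds, and this bears on every value that follows. Gene-assigned fragments ranged from 570323 to 19930375 per library. The share of fragments on ribosomal protein genes (97 symbols that begin with Rps or Rpl and a digit, 10 of them Rps6k kinases) was over 4% in 7 libraries (4.25 to 9.42%) and at most 4% in the other 9 (0.398 to 1.21%). All 4 controls were of the low kind. So were replicates 3 and 4 at both 45 and 135 min, and at 405 min replicate 2 alone. The 9 fibroblast markers checked (Col1a1, Col1a2, Col3a1, Vim, Fn1, Sparc, Thy1, Pdgfrb and Lgals1) were detected in all but 1 library each at most, at a summed level of 3423 to 20422 CPM (counts scaled to 1000000 per library) in the 7 libraries and 244 to 1600 CPM in the 9. Summed markers of other cell types were lower in the 7 than in the 9 for 4 epithelial genes (0 to 78.7 against 88.1 to 172 CPM), 4 immune genes (1.96 to 31.9 against 68.1 to 117 CPM) and 3 endothelial genes (0 to 56.3 against 109 to 279 CPM). Those of 3 neuronal genes overlapped (1.03 to 83.7 against 28.1 to 126 CPM). Because no control was over 4%, the kind of library and the drug cannot be told apart in any comparison with control that uses all libraries.

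Together the 10 genes took 0.0286 to 0.0615% of fragments in the controls. They took 0.0356 to 0.286% at 45 min, 0.0445 to 0.503% at 135 min and 0.0839 to 0.497% at 405 min. A bulk library cannot tell more RNA in every cell from more cells that express a gene. The upper ends of the treated ranges all came from libraries with a high ribosomal protein share, where the sum was 0.211 to 0.503%, and no library of the low kind exceeded 0.0839%. Within the low kind, 405 min replicate 2 held the highest share of the 9 and control replicate 2 the next (0.0615%). Both libraries also had the highest ribosomal protein shares of the 9, at 0.907 and 1.21%.

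**Figure D1:**
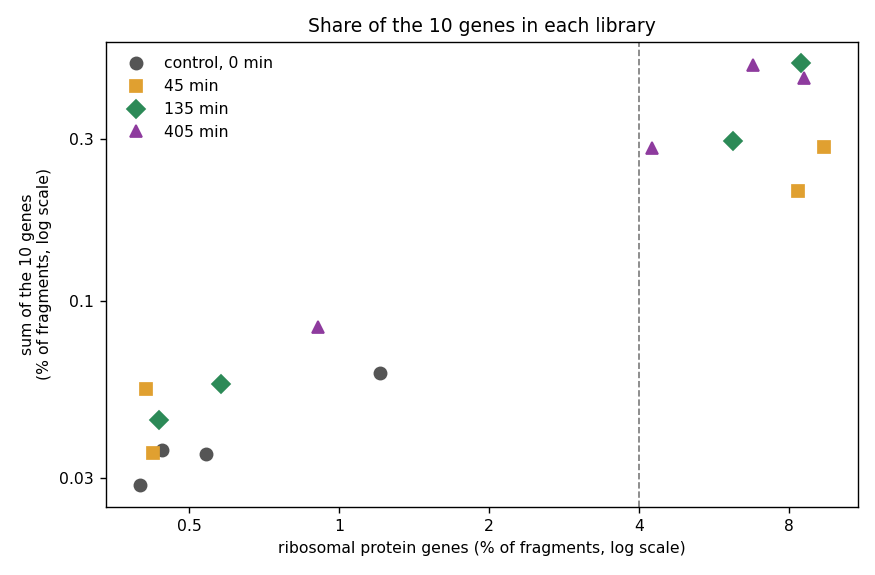
Each point is 1 library, with the ribosomal protein share of its fragments on the x axis and the summed share of the 10 genes on the y axis, both in percent on log scales, and the dashed line marks 4%. The 7 libraries right of the line all lie above the 9 left of it (0.211 to 0.503% against 0.0286 to 0.0839%), and the 4 controls are all left of it.

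On a scale that allows genes to be compared (the rank of a gene's length-scaled level, FPKM, within its library), Prdx1 and Txnrd1 were the most abundant of the 10, with median percentiles of 96.3 and 88.7 in the controls. Gclm (74.9) and Osgin1 (73.4) followed, then Srxn1 (70.6) and Hmox1 (62.6), and Gclc (48.8), Nqo1 (40.3), Slc7a11 (30.6) and Gsr (30.1) were lowest. Neighbours in this order overlapped in their libraries, since the ranges within the controls ran from 24.99 to 61.3 for Gclc and from 0 to 87.3 for Hmox1. At 405 min the median percentile was over 90 for Prdx1, Txnrd1, Gclm, Hmox1, Srxn1 and Gclc (92.4 to 99.4), and was 79.5 for Slc7a11. A rank also depends on the share of genes at 0 in its library. That share was 6.71 to 27.7% in the controls and 5.65 to 49.5% over all libraries, so ranks in different libraries are not on the same scale.

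**Figure D2:**
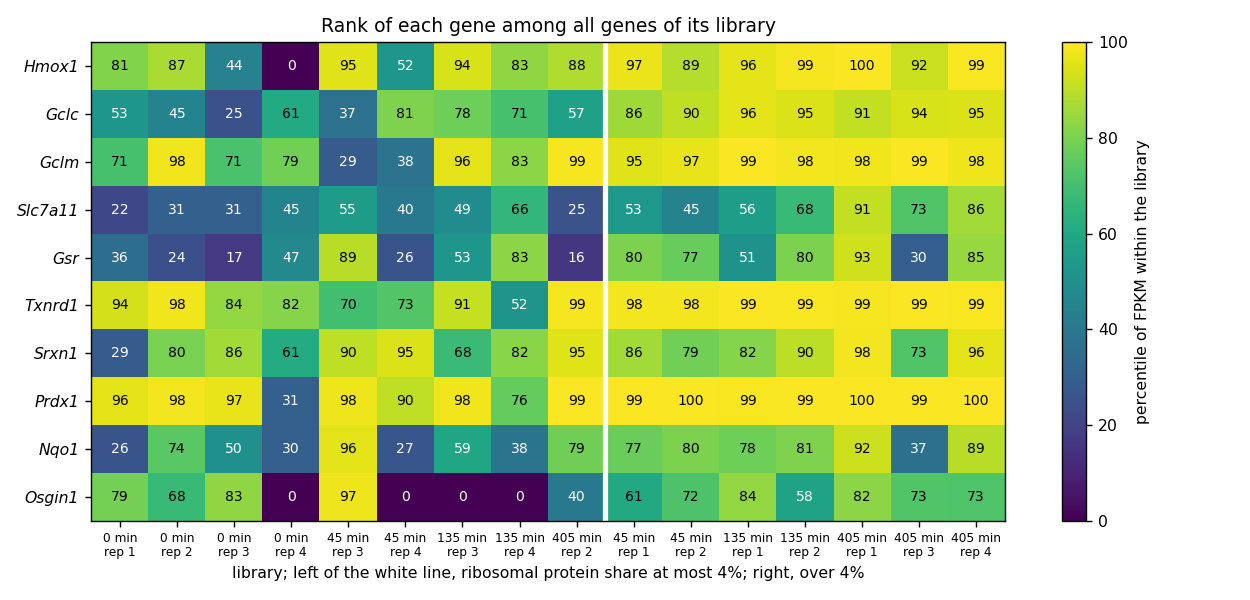
Each cell gives the percentile of a gene's FPKM value among all genes of that library, from 0 (dark) to 100 (yellow), with genes in rows and libraries in columns, those with a ribosomal protein share of at most 4% left of the white line and those over 4% right of it. Prdx1 and Txnrd1 stand between 98.1 and 99.6 in the libraries on the right. Slc7a11 is at 53.2 and 44.8 in the 45 min libraries on the right and between 72.8 and 90.7 in the 405 min ones. The share of genes at 0, on which a rank depends, was 45.2 and 38.7% in those 45 min libraries. In those 405 min ones it was 5.65, 17.9 and 43.1%.

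Hmox1 encodes heme oxygenase 1, which opens the heme ring and releases iron and biliverdin. Its level in controls 1 to 4 was 28.2, 30.2, 14.6 and 0 CPM, where the 0 allows up to 3.47 CPM (3 counts, counting error only). At 45 min it was 130.0, 37.0, 44.9 and 14.4 CPM, and at 135 min 64.4, 375, 70.1 and 34.1 CPM. At 405 min it was 1828, 29.9, 41.1 and 747 CPM. All 4 libraries at 135 min were above all 4 controls (exact 2-sided permutation test of the mean log2(CPM + 1), p = 0.0286, the smallest that 4 against 4 libraries can give). Such full separation in the upward direction held for 0.729% of all genes at 135 min. On CPM scaled by the TMM factors of the fits, Hmox1 was no longer separated, with 23.58 CPM in 135 min replicate 4 and 23.66 CPM in control replicate 2. At 405 min replicates 1 and 4 stood far above the other two libraries, of which replicate 2 lay within the control range and replicate 3 above it. The fitted log2 fold change at 405 min against control was 6.79 (SE 1.84, n = 4), the highest of the 10 genes, with an unadjusted p = 0.0011 and an adjusted p = 0.418 (edgeR quasi-likelihood test, Benjamini-Hochberg over 22359 genes).

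Gclc and Gclm encode the catalytic and the modifier subunit of glutamate-cysteine ligase, which catalyses the rate-limiting step of glutathione synthesis. Gclc was steady in the controls, at 32.8, 32.5, 23.6 and 42.8 CPM. It was 78.7, 108, 27.2 and 70.5 CPM at 45 min, 321, 179.8, 70.1 and 54.5 CPM at 135 min, and 131, 40.3, 126 and 209 CPM at 405 min. Like Hmox1, it was higher in every 135 min library than in every control (exact permutation p = 0.0286), with both kinds of library on the same side, and it stayed so on TMM-scaled CPM, where 0.859% of all genes did. At 405 min only replicate 2 fell within the control range.

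Gclm was more variable, with 27.1, 102, 29.2 and 39.3 CPM in the controls. At 45 min it split by the kind of library, at 144 and 238 CPM in replicates 1 and 2 and 12.2 and 11.2 CPM in replicates 3 and 4. At 135 min it was 1761, 361, 117 and 45.4 CPM, and at 405 min 256, 152, 658 and 281 CPM. All 405 min libraries were above all controls (exact permutation p = 0.0286), and the same separation held for 2.68% of all genes. The fitted log2 fold changes against control were 2.11 (SE 1.33) at 45 min, 4.29 (SE 1.45) at 135 min and 3.73 (SE 1.42) at 405 min for Gclm, and 1.94 (SE 0.99), 2.94 (SE 1.03) and 3.19 (SE 1.04) for Gclc. None passed the test, with adjusted p between 0.418 and 1 (edgeR).

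Slc7a11 encodes the light chain of the cystine and glutamate exchanger xCT, which brings in the cystine that glutathione synthesis needs. Its control levels were 31.6, 67.3, 75.2 and 71.7 CPM. At 45 min it was 7.02 and 4.75 CPM in replicates 1 and 2 and 110.2 and 60.9 CPM in replicates 3 and 4. At 135 min it was 13.6, 67.9, 5.26 and 133 CPM, and at 405 min 225, 63.7, 112 and 181 CPM. Unlike the genes above, its 45 min level was lower in the libraries with a high ribosomal protein share than in the others. At 135 min the kinds were mixed, and at 405 min the order was the reverse. The share of all genes with the 45 min order was not counted. Over all 16 libraries only 22.6% of all genes had the higher median in the high kind. Against control the fitted log2 fold change was -0.36 (SE 0.99) at 45 min, 0.18 (SE 0.99) at 135 min and 2.58 (SE 1.05) at 405 min, with adjusted p of 1, 1 and 0.434 (edgeR).

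Gsr encodes glutathione reductase, which returns oxidized glutathione to its reduced form. It was tightly grouped in the controls (13.5 to 20.8 CPM) and widely spread after bortezomib, at 1.60 to 61.2 CPM at 45 min, 0.317 to 60.2 CPM at 135 min and 8.66 to 107 CPM at 405 min. The control range lay inside the range of every treated group. Its fitted log2 fold change at 405 min was 2.93 (SE 1.28), with an adjusted p = 0.469 (edgeR).

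Txnrd1 encodes the cytosolic thioredoxin reductase, the selenoenzyme that keeps thioredoxin reduced. It stood at 108, 190.4, 61.7 and 71.7 CPM in the controls and at 569, 745, 51.7 and 57.7 CPM at 45 min. At 135 min it was 2199, 1066, 144 and 28.4 CPM, and at 405 min 857, 239, 1312 and 1345 CPM. Every 405 min library was above every control, 405 min replicate 2 of the low kind included (exact permutation p = 0.0286). The same separation held for 2.68% of all genes. At 45 and 135 min the libraries of the low kind lay within or below the control range.

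Prdx1 encodes a peroxiredoxin that reduces peroxides with electrons from thioredoxin. A Prdx1 pseudogene is annotated, and reads may be shared with it, so its counts are uncertain. Control levels were 53.1, 82.4, 41.5 and 2.31 CPM. They were 1089, 1663, 52.4 and 36.8 CPM at 45 min, 626, 787, 109 and 23.8 CPM at 135 min, and 847, 182, 507 and 1489 CPM at 405 min. Again all libraries at 405 min were above all controls (exact permutation p = 0.0286), as for 2.68% of all genes. At the earlier times the high values were those of replicates 1 and 2. Prdx1 had the largest fitted change of the 10 genes at 45 min, a log2 fold change of 5.05 (SE 1.75, unadjusted p = 0.0078, adjusted p = 0.555, edgeR).

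Srxn1 encodes sulfiredoxin, which repairs overoxidized peroxiredoxins. It was 15.8, 47.6, 53.9 and 34.7 CPM in the controls, 46.0, 22.6, 67.3 and 101 CPM at 45 min, 22.8, 74.0, 36.8 and 62.5 CPM at 135 min, and 615, 80.6, 32.5 and 219.9 CPM at 405 min. The first 3 groups overlapped, and at 405 min replicates 1 and 4 were above all other libraries of the series. The log2 fold change at 405 min against control was 4.22 (SE 1.13) with the lowest unadjusted p of the 10 genes, 0.00098, and an adjusted p = 0.418 (edgeR).

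Nqo1 encodes a quinone reductase and Osgin1 an oxidative stress-induced growth inhibitor. Nqo1 ranged from 2.31 to 22.1 CPM in the controls, 1.60 to 48.3 CPM at 45 min, 3.41 to 17.9 CPM at 135 min and 6.50 to 55.9 CPM at 405 min. Osgin1 was at 0 in control replicate 4, 45 min replicate 4 and 135 min replicates 3 and 4, each of which allows up to 3.41 to 5.26 CPM, and reached 33.7 CPM in the controls and 43.8 CPM at 405 min. For either gene every treated group overlapped the controls. Osgin1 was the only gene of the 10 with an unadjusted edgeR p over 0.05 at 405 min against control (log2 fold change 1.26, SE 1.56, adjusted p = 0.969).

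**Figure D3:**
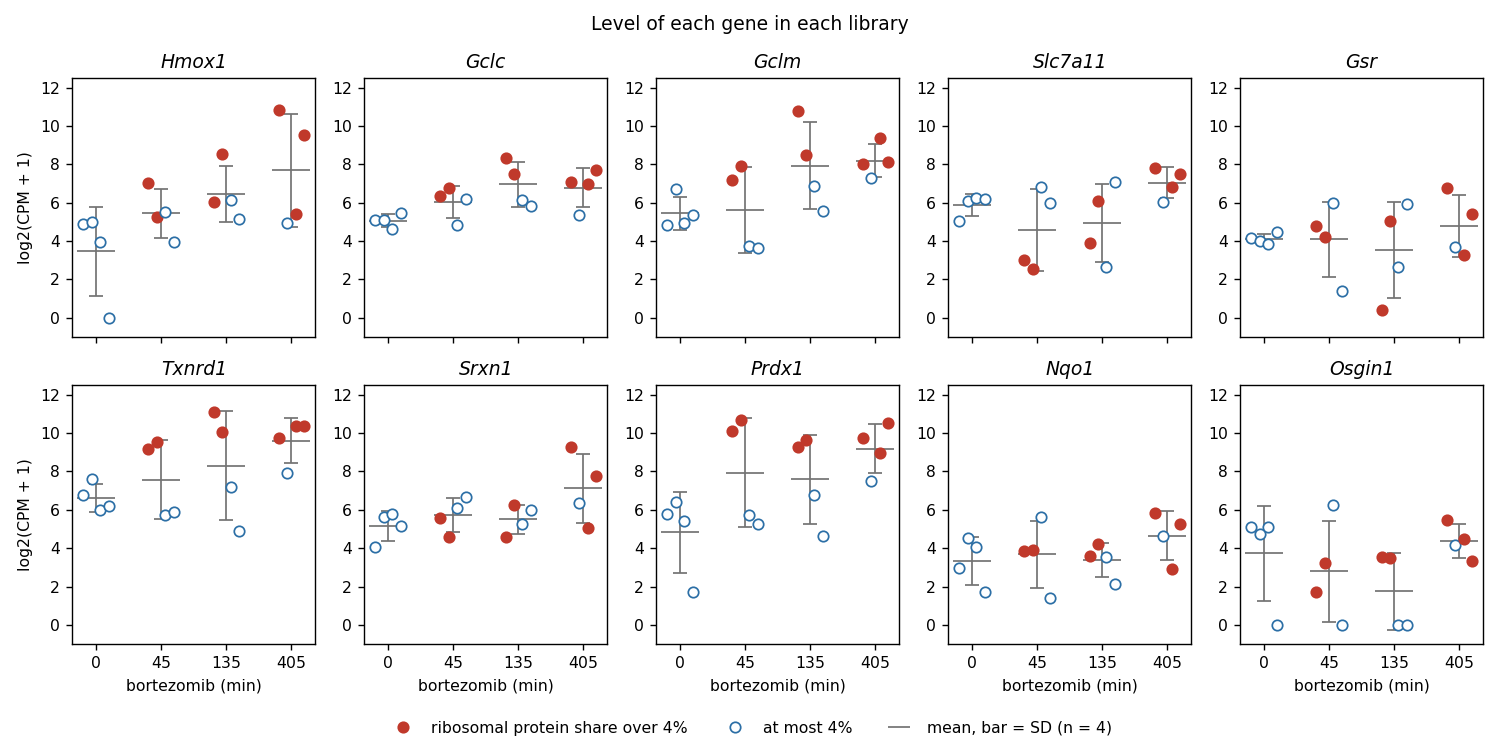
Each panel shows 1 gene, with the time in bortezomib on the x axis and log2(CPM + 1) on the y axis, a point for each library (filled where the ribosomal protein share is over 4%, open where it is at most 4%), and a grey bar for the mean with its SD over 4 libraries. Filled points lie above open ones at 45 and 135 min for Gclm, Gclc, Txnrd1 and Prdx1. At 45 min the filled points of Slc7a11 (7.02 and 4.75 CPM) and of Srxn1 (46.0 and 22.6 CPM) lie below the open ones of the same gene. On TMM-scaled CPM Slc7a11 kept this order, while Srxn1 overlapped (65.7 and 39.7 against 49.4 and 68.9 CPM). The share of all genes with either pattern was not counted.

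The comparison with control asked whether these genes responded to proteasome inhibition at each time. None of the 10 passed an adjusted p of 0.05 at 45, 135 or 405 min in the fit to all 16 libraries, in which 0.0%, 0.0% and 0.00447% of the 22359 genes were called in either direction. At an unadjusted p under 0.05, 1 gene was higher at 45 min (Prdx1), 5 at 135 min (Hmox1, Gclc, Gclm, Txnrd1 and Prdx1) and 9 at 405 min (all but Osgin1), and none was lower. Over all genes tested, 5.56%, 3.01% and 8.87% were higher at that level, and 2.72%, 0.617% and 0.358% were lower. The fitted change was positive for 9, 9 and 10 of the 10 genes, against 38.0%, 38.6% and 42.5% of all genes. Its median over the 10 was 1.59, 1.90 and 3.46 on the log2 scale, beside a median over all genes of -0.40, -0.34 and -0.31. The 3 comparisons share the control libraries. On TMM-scaled CPM, every library was above every control for Srxn1 at 45 min (0.993% of all genes) and for Gclm, Gclc, Txnrd1 and Prdx1 at 405 min (4.54%).

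**Figure D4:**
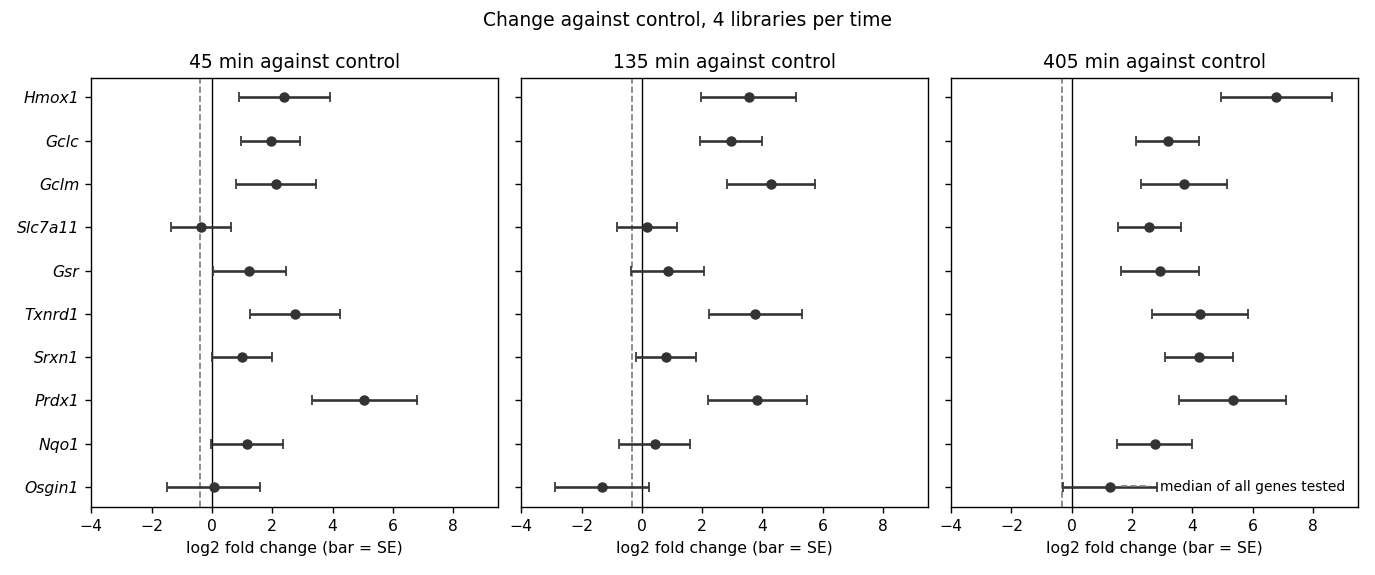
Points give the fitted log2 fold change of each gene against control at 45, 135 and 405 min, bars its SE, and the dashed line the median over all 22359 genes tested (-0.40, -0.34 and -0.31). At 405 min all 10 points lie right of 0, from 1.26 (Osgin1) to 6.79 (Hmox1), and none passed the adjusted test.

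DESeq2, run on the same counts, called 1 of the 10 at 45 min (Prdx1, log2 fold change 4.44, SE 1.20, adjusted p = 0.0247), none at 135 min and 6 at 405 min. At 135 min 5 of the 10 were higher at an unadjusted DESeq2 p under 0.05, as were 4.31% of all genes. DESeq2 called 1.56%, 0.0179% and 1.65% of the 22359 genes higher at the 3 times. At 45 and 405 min those 22359 include genes that it gave no adjusted p. The share among the genes it could call was therefore larger at those times, and was not counted. The 6 at 405 min were Hmox1 (5.42, SE 1.19, adjusted p = 0.00079), Prdx1 (4.38, SE 1.20, adjusted p = 0.0092), Srxn1 (2.85, SE 0.80, adjusted p = 0.011), Txnrd1 (3.35, SE 1.10, adjusted p = 0.025), Gclc (2.20, SE 0.81, adjusted p = 0.041) and Gclm (2.93, SE 1.11, adjusted p = 0.048). At 405 min it gave no adjusted p for Slc7a11, Nqo1, Gsr and Osgin1. With the ribosomal protein share as a covariate in the edgeR fit, 3 of the 10 rather than 9 were higher at an unadjusted p under 0.05 at 405 min, against 0.801% of all genes, and the median change was 1.44 for the 10 and 0.40 for all genes.

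Within the libraries of the low kind, 2 libraries remained at 45 and 135 min and 1 at 405 min, whose spread was taken from the other groups. Their ribosomal protein shares still differed. That of 405 min replicate 2 was 0.907%, beside 0.541, 1.21, 0.441 and 0.398% in controls 1 to 4. None of the 10 genes was called (edgeR), and 0.0%, 0.121% and 0.00898% of 22274 genes were. At 45 min Gclm was lower than control by a log2 fold change of -2.09 (SE 0.80, unadjusted p = 0.019, adjusted p = 1), where the fit to all libraries had it higher. Gclc and Hmox1, which were separated from the controls at 135 min over all libraries, had log2 fold changes of 0.65 (SE 0.72) and 1.16 (SE 1.22) there. In 405 min replicate 2, Prdx1 (2.05, SE 1.02), Gclm (1.67, SE 0.82) and Txnrd1 (1.20, SE 0.71) had the highest values. Among the controls, these genes were highest in replicate 2 (82.4, 102 and 190.4 CPM), which had the highest ribosomal protein share.

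The course under bortezomib can be read among the 7 libraries with a high ribosomal protein share, 2 at 45 min, 2 at 135 min and 3 at 405 min, none of which is a control. Slc7a11 was called there. It stood at 7.02 and 4.75 CPM at 45 min, at 13.6 and 67.9 CPM at 135 min, and at 225, 112 and 181 CPM at 405 min, with no overlap between the groups. Such upward separation held for 18.4% of all genes from 45 to 135 min and for 2.55% from 135 to 405 min. From 45 to 405 min the log2 fold change of Slc7a11 was 4.75 (SE 0.95, n = 3 against 2, adjusted p = 0.0013, edgeR), and 0.0449% of 22279 genes were called higher in this comparison. The step from 45 to 135 min was 2.57 (SE 0.88, adjusted p = 0.615) and that from 135 to 405 min 2.18 (SE 0.82, adjusted p = 1). The call rests on both 45 min libraries, since without replicate 1 the adjusted p was 0.930 and without replicate 2 it was 0.260. It was also lost with a stricter filter on low counts (adjusted p = 0.0592 with filterByExpr and 0.672 for genes with a count in every library), while the change itself stayed between 4.44 and 5.16 in the fits without 1 library. In all 8 libraries of these groups, low kind included, the change was 2.94 (SE 1.06, adjusted p = 1).

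Hmox1 and Srxn1 came next in the same 7 libraries, with log2 fold changes from 45 to 405 min of 3.25 (SE 1.07, adjusted p = 0.352) and 2.91 (SE 0.88, adjusted p = 0.275). The lowest value at 405 min was that of replicate 3 for each, 41.1 CPM for Hmox1 and 32.5 CPM for Srxn1, which lay within the 45 min range. Osgin1 (1.94, SE 1.65), Nqo1 (1.21, SE 1.15), Gsr (1.10, SE 0.95), Gclm (0.81, SE 0.99), Txnrd1 (0.71, SE 1.19) and Gclc (0.67, SE 0.80) followed, and Prdx1 was at -0.55 (SE 1.12). Gclm, Gclc, Txnrd1, Osgin1 and Slc7a11 had every 405 min library above both 45 min ones, a separation that 8.85% of all genes showed. On TMM-scaled CPM it held for these genes other than Gclc, and for 9.07% of all genes. For Gclm, Gclc and Txnrd1 the highest level was at 135 min in replicate 1 alone (1761, 321 and 2199 CPM). In 135 min replicate 2 they were at 361, 179.8 and 1066 CPM. Each of these lay below the highest 405 min value (658, 209 and 1345 CPM). Gclm went from a change of 2.42 (SE 1.11) between 45 and 135 min to -1.61 (SE 0.95) between 135 and 405 min. Over the same steps Gclc went from 1.32 (SE 0.88) to -0.65 (SE 0.78) and Txnrd1 from 1.22 (SE 1.29) to -0.51 (SE 1.15). Prdx1 was lower at 135 than at 45 min in both libraries of each time (626 and 787 against 1089 and 1663 CPM), as were 5.8% of all genes.

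**Figure D5:**
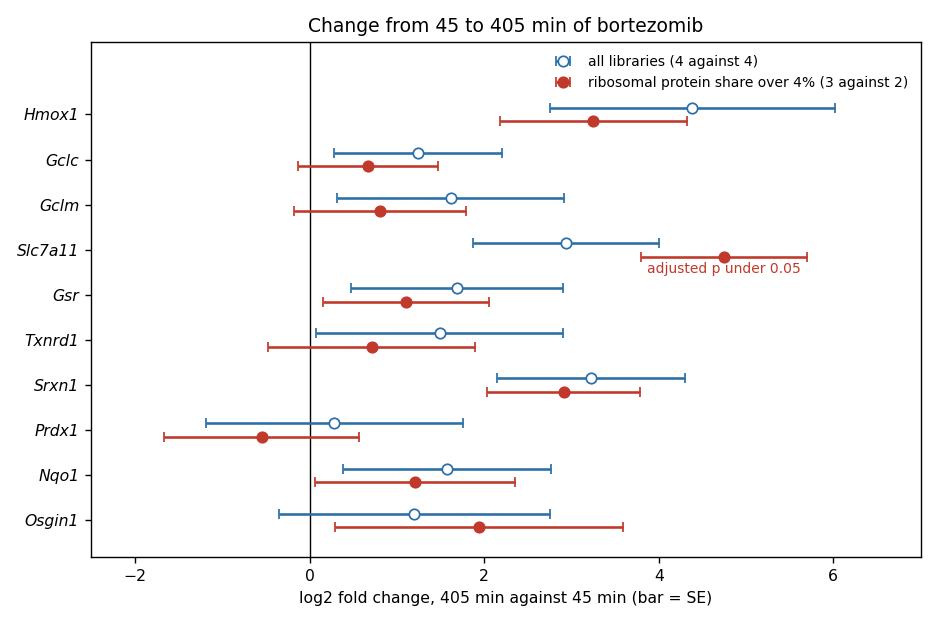
For each gene, points give the fitted log2 fold change from 45 to 405 min of bortezomib and bars its SE, open for all 8 libraries and filled for the 5 with a ribosomal protein share over 4%. Slc7a11 is the gene furthest right among the filled points (4.75) and the only one past the adjusted threshold, and Prdx1 the only one left of 0 (-0.55).

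Over all libraries of the treated groups none of the 10 was called between times, where 0.0% of all genes were called from 45 to 135 min, 0.00894% from 135 to 405 min and 0.00894% from 45 to 405 min (edgeR). At an unadjusted p under 0.05, Hmox1, Slc7a11 and Srxn1 were higher at 405 than at 135 min and at 405 than at 45 min (edgeR), where 1.85% and 2.54% of all genes were. Their changes were 3.24 (SE 1.55), 2.40 (SE 1.04) and 3.43 (SE 1.08) from 135 to 405 min. They were 4.38 (SE 1.63), 2.94 (SE 1.06) and 3.22 (SE 1.07) from 45 to 405 min. Between 45 and 135 min none of the 10 had an unadjusted p under 0.05, and 5 had a positive change. These 3 comparisons share libraries with each other.

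Of the 8 regulators of the pathway, none was called at any time (edgeR). At 405 min against control 4 of the 8 were higher at an unadjusted p under 0.05 (8.87% of all genes), and the median change was 1.85 (-0.31 over all genes). These were Cul3 (4.07, SE 1.32), the scaffold of the ligase that holds Nrf2, Nfe2l2 itself (3.44, SE 1.33), the small Maf gene Mafg (2.68, SE 1.08) and Nfe2l1 (2.32, SE 0.95), which encodes the related factor that raises proteasome gene expression. Maff (1.38), Bach1 (1.16), Mafk (0.47) and Keap1 (0.10) had higher p. Cul3 was at 177 to 319.7 CPM in the 7 libraries with a high ribosomal protein share and 4.54 to 89.4 CPM in the other 9, and 4.42% of all genes were as fully separated. Nfe2l2 was at 113 to 393 CPM in the 7 and 0 to 132 CPM in the 9. From 45 to 405 min within the 7, the log2 fold change of Nfe2l2 was 0.19 (SE 0.82) and that of Cul3 -0.10 (SE 0.83). Keap1 had the lower median in the 7, at 6.98 to 47.9 CPM there and 45.2 to 170.1 CPM in the 9. Only 22.6% of all genes had the higher median in the 7.

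Among 26 other targets of Nrf2, edgeR called none, and at 405 min against control 16 were higher with an unadjusted p under 0.05, beside the 8.87% of all genes, with a median change of 3.29. Sqstm1, the autophagy receptor p62, had a change of 7.11 (SE 1.99), with 4982 and 1138 CPM in 405 min replicates 1 and 4, 45.5 and 75.8 CPM in replicates 2 and 3, and 22.4 to 58.7 CPM in the controls. The ferritin chains Fth1 (6.37, SE 2.49) and Ftl1 (5.62, SE 1.76), which store iron, followed. Fth1 was at 4861 to 8974 CPM in the libraries with a high ribosomal protein share and 37.4 to 1185 CPM in the others. Txn1, the thioredoxin that Txnrd1 reduces, was at 503 to 1923 CPM against 12.7 to 149 CPM, and its change at 405 min was 4.42 (SE 1.78). The glutathione transferase gene Gstp1 had no count in any control and at most 45.7 CPM elsewhere, so no fold change is given. Of 19 other antioxidant enzymes edgeR called none, and at 405 min 5 of them were higher with an unadjusted p under 0.05, again beside 8.87% of all genes. The largest changes were those of Sod1 (5.25, SE 1.75), the cytosolic superoxide dismutase, the peroxiredoxins Prdx4 (5.14, SE 1.88) and Prdx3 (3.41, SE 1.57), and Txn2 (3.65, SE 1.43). Sod2 (1.01, SE 0.94), the mitochondrial dismutase, and catalase, Cat (1.24, SE 1.23), were among the genes of that list with the highest mean CPM, a scale not corrected for length, and had unadjusted p of 0.291 and 0.324. DESeq2 called Cul3, Sqstm1, Fth1, Ftl1, Txn1 and Sod1 higher at 405 min, and Cul3, Fth1, Txn1 and Ugdh at 45 min, of these 3 lists.

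The levels were also read by kind of library. The median level was higher in the 7 libraries with a high ribosomal protein share than in the 9 others for 8 of the 10 genes, 4 of 8 regulators, 20 of 26 other targets and 11 of 19 other antioxidant enzymes, and for 22.6% of all genes. Gclc, Txnrd1 and Prdx1 were higher in each of the 7 than in each of the 9, as were 4.42% of all genes, and Srxn1 and Osgin1 had the lower median in the 7. On TMM-scaled CPM the median was higher in the 7 for all 10 genes and for 32.1% of all genes, and Hmox1 and Gclm joined the 3 separated genes, beside 9.26% of all genes. What part of this belongs to the kind of library and what part to bortezomib was not tested, since treated libraries alone make up the 7.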

How the data were processed

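RNA from 16 libraries of NIH3T3 cells was analysed, 4 per group, with group and replicate taken from the titles. Per the labels, total RNA was made into libraries with the NuGEN Encore Complete kit, and the study's methods also describe poly(A) selection. Its methods name mm9 and RefSeq genes, while the submitters' processing notes name mm10, so no coordinates are given for genes, and the aligner is not given in the sources used here. For each library the authors deposited estimated counts (raw fragments per gene), which need not be whole (98.0 to 99.4% were) and were rounded here, and FPKM values, used here only as percentiles within a library. The authors' other 2 columns, fragment counts scaled as a signal, were not used. Plain CPM is a gene's fragments scaled to 1000000 gene-assigned fragments per library, with no further scaling, and a pseudocount of 1 was used for log2 values.

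edgeR 4.0.16 (R 4.3.3) quasi-likelihood tests with TMM factors (0.385 to 1.66) were fitted to all 16 libraries and the 22359 genes with at least 1 count in any library (12 residual degrees of freedom, biological coefficient of variation 139%). The study's own filter, 1 read in every sample, would keep 5030 genes and drop Hmox1 and Osgin1, and was an alternative. SE is the log2 fold change over the square root of F. A gene was called at an adjusted p under 0.05 over all genes tested. DESeq2 1.42.0 was an alternative, and so was TMM-scaled CPM for separation between libraries, chosen after seeing the data. Scripts were tested on simulated data. Each of the 120 library pairs differed in its values. Same-numbered libraries of 45 and 135 min deviated together (r 0.115 to 0.502 in the 4 pairs), and a block on the number changed no call there. At both times replicates 1 and 2 were over 4% and replicates 3 and 4 at most 4% in ribosomal protein share. A pairing by number therefore cannot be told apart from the kind of library. The members, the gene lists and the tests were chosen with earlier results of these data known. The genes named from the wider lists are all 8 regulators and, per list, those called, up to 4 with the largest absolute change at 405 min and up to 4 with the highest mean CPM. Intervals and floors (3 counts) cover counting error only.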

Additional observations from a re-analysis of the deposited data

Results flagged for a closer look

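Each of the 40 groups of 4 libraries (10 genes at 4 times) was tested for a library far from the other 3 (Dixon's ratio on log2(CPM + 1) against its 95% critical value), a test that chance alone passes in about 2 of 40 groups. In 2 groups it did, both of controls. Osgin1 was at 0.0 in control replicate 4, with the other controls at 4.73 to 5.12. Slc7a11 was at 5.03 in control replicate 1, with the other controls at 6.09 to 6.25.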

How the results depend on the processing

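No member was called in any edgeR alternative that used all libraries, nor without any 1 library, and the replicate block called 0 members in every comparison and so changed no other call of a member. Only 4 of the 16 libraries correlated best with their own number, and outside 45 and 135 min the numbers did not pair the libraries. Between 45 and 135 min, same-numbered libraries were also of the same kind. DESeq2 called 1 member at 45 min and 6 at 405 min against control, and the 7 libraries over 4% gave 1 call from 45 to 405 min. Among those libraries, by alternatives chosen after seeing the data, that count was 2 with RLE factors, 0 with filterByExpr, 0 with 1 count in every library and 0 to 3 without 1 library (0 without replicate 1 or 2 of 45 min, 3 without 405 min replicate 3). For each shorter step it was 0 to 1, with 1 without 135 min replicate 2 for both and without 405 min replicate 3 from 135 to 405 min. The Slc7a11 change there was 4.75 with filterByExpr and 4.88 with 1 count in every library, neither past the threshold, and 4.44 to 5.16 without 1 library. The cause of these differences was not tested. Levels with a pseudocount of 0.5 in place of 1 moved by less than the spread between replicates.

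The number of genes called of all tested was 0 at 45 and 135 min, 1 at 405 min against control, 0 from 45 to 135 min, and 2 from 135 or from 45 to 405 min. With DESeq2 it was 348, 4 and 372 against control, 4 from 135 to 405 min and 6 from 45 to 405 min. With the study's filter it was 0 at 405 min against control, from 135 to 405 min and from 45 to 405 min. In the libraries of at most 4% it was 27 at 135 min and 2 at 405 min, and in those over 4% it was 3, 8 and 16 from 45 to 135, 135 to 405 and 45 to 405 min. With the ribosomal share as covariate it was 5 at 405 min against control, 4 from 135 and 7 from 45 to 405 min. Library size alone gave 3 and thinning to the smallest library 12 at 405 min against control. From 135 to 405 min thinning gave 4, filterByExpr 1 and the compared groups alone 6, and the latter gave 0 from 45 to 405 min. Without 1 library it was 1 to 5 from 135 to 405 min (5 without 135 min replicate 2, 1 without any 405 min library or 135 min replicate 1 or 3). From 45 to 405 min it was 1 to 3, with 1 without 45 min replicate 2 or any 405 min library.

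Log2 fold changes that turned sign were all uncalled in the fit to all libraries. In the libraries of at most 4% they were, against control, Gclm -2.09, Txnrd1 -1.03, Prdx1 -0.052 and Slc7a11 0.47 at 45 min, Nqo1 -1.11 and Txnrd1 -0.71 at 135 min, and Osgin1 -0.40 and Gsr -0.42 at 405 min. In those over 4% they were Srxn1 0.30 and Osgin1 0.83 from 45 to 135 min, Gclc -0.65 and Txnrd1 -0.51 from 135 to 405 min, and Prdx1 -0.55 from 45 to 405 min. With the covariate they were Gclm -1.29 and Txnrd1 -0.60 at 45 min, Nqo1 -0.45 at 135 min, and Gclc -0.16 from 135 to 405 min. DESeq2 gave Osgin1 -0.050 at 45 min, Slc7a11 -0.054 at 135 min, Gclc -0.42 and Txnrd1 -0.093 from 135 to 405 min, and Prdx1 -0.063 from 45 to 405 min, and edgeR with RLE factors gave the same values at this precision. Library size alone gave Osgin1 -0.12 at 45 min and -0.00721 at 405 min, Nqo1 -0.12 and Slc7a11 -0.16 at 135 min, and Gclc -0.30 from 135 to 405 min. The study's filter gave Slc7a11 -0.050 at 135 min and Gclc -0.23 from 135 to 405 min. Thinning gave Osgin1 -0.51 at 45 min, Nqo1 -0.29 at 135 min and Gclc -0.66 from 135 to 405 min. The difference in mean log2(CPM + 1) was -0.94 for Osgin1 and -0.038 for Gsr at 45 min, -0.97 for Slc7a11 and -0.61 for Gsr at 135 min, and 0.27 for Gclm and -0.16 for Gclc from 135 to 405 min. The replicate block gave Gclm 1.34 from 135 to 405 min.

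Without 1 library, the ranges that crossed 0 were, from 135 to 405 min, -0.96 to 1.34 for Gclm and -0.14 to 1.04 for Gclc, and, from 45 to 405 min, -0.065 to 2.78 for Osgin1 and -0.25 to 1.36 for Prdx1. From 45 to 135 min they were -0.55 to 2.17 for Hmox1, -0.11 to 1.89 for Txnrd1, -0.81 to 0.035 for Srxn1, -1.92 to 0.21 for Osgin1 and -0.93 to 0.033 for Gsr. Against control they were -1.53 to 0.46 for Osgin1 at 45 min, -0.18 to 0.97 for Nqo1 and -0.27 to 0.57 for Slc7a11 at 135 min, and -0.0094 to 1.73 for Osgin1 at 405 min. The median change of all genes at 405 min against control was -0.31 with TMM, -0.82 with RLE factors and -0.86 with library size alone, and 10, 10 and 9 of the 10 members were positive. The 9 libraries of at most 4% held 570323 to 1469951 fragments each. Thinning to the smallest library moved the number of genes called from 1 to 12 at 405 min against control. From 135 to 405 min thinning moved it from 2 to 4. The part of depth in the number of calls was not tested further.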
